A study of Mus musculus with 384 samples.

Results

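Cd34, Kit, Hoxa9, Fli1 and Zfp521 are the 5 genes, of 96 assayed, that were taken here as stem and multipotent genes, and their transcripts were followed in single common lymphoid progenitors (CLPs) of mouse bone marrow. Cd34, Hoxa9, Fli1 and Zfp521 were found by gene symbol and Kit by its antigen name CD117. Their level was compared between cells with and without transcripts of the B-lineage genes Ebf1, Ly6d and Pax5. Cd34 changed most: among cells with a product, its level fell by 3.45 cycles from cells with none of these 3 genes to cells with Pax5, the largest fall of the 49 assays tested. Kit fell by 0.79 cycles in the same comparison, a call lost in 4 of 12 alternatives and at -0.41 cycles when centred on reference genes, and Hoxa9, Fli1 and Zfp521 did not pass the test.

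Cd34 is a sialomucin of the cell surface, and Kit is the receptor tyrosine kinase for stem cell factor; both are used to sort early progenitors. Hoxa9 is a homeobox factor of stem cells and early lymphoid progenitors, Fli1 is an ETS-family transcription factor of stem cells and megakaryocytes, and Zfp521 is a zinc finger protein that binds and restrains Ebf1. Ebf1 and Pax5 are transcription factors that start and fix the B-lineage programme, and the surface protein Ly6d marks the B-biased part of the CLP compartment.

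The cells came from wild-type C57/Bl6 mice, without age or sex in the labels, and were sorted as negative for lineage markers and B220, positive for Flt3 and Il7r, and low for Kit and Sca1. Kit protein was thus part of the gate, and among the 4 positive or low markers of the gate Kit alone is in the assays used here, so the CLP label could be checked on that gene only. There were 4 plates, P0 to P3, and each held 90 single-cell wells, 4 wells without reverse transcriptase (no-RT wells), 1 pool of 10 cells and another of 20. Transcripts were pre-amplified with all 96 TaqMan assays in the well and read by quantitative PCR as a threshold cycle (Ct), where a lower Ct means more starting transcript. A Ct below 28 counts here as a product, 40 stands for no product, and level means 28 minus Ct, in cycles.

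Of 360 single-cell wells, 347 passed quality control, 86 on P0 and 87 on each of P1, P2 and P3. A kept cell gave between 22 and 54 products, with a median of 43, against 6.5 in the no-RT wells. The plate was the replicate (n = 4), errors are SDs over plates unless said otherwise, and the labels do not say whether plates came from separate animals, so p-values measure only the spread between these plates, which may be technical. Of 5 T-cell markers, Cd3e and Cd2 gave no product in any kept cell, and Cd4, Cd5 and Gata3 gave one in 11.0%, 9.80% and 14.1% of cells. Of 4 NK and innate markers, Tbx21 gave none, and Klrb1c, Il2rb and Itgb7 gave one in 13.3%, 14.4% and 7.49%. Between cells with none of Ebf1, Ly6d and Pax5 and cells with Pax5, Klrb1c rose from 5.03% to 33.0% (limma, adjusted p = 0.0116), while Itgb7 fell from 20.8% to 0% (adjusted p = 0.0110) and Cd4 from 18.9% to 4.27% (adjusted p = 0.0182; 0.0756 without the 5 cells described below). The mean number of products from 6 myeloid genes was 2.55 in the cells with none (2.36 to 2.71 over plates; 2.59 without the 5 cells) and 1.44 in cells with Pax5 (1.14 to 1.84). Of the 6, Csf3r fell from 86.5% to 16.7%, Csf1r from 47.9% to 15.5% and Cebpa from 50.7% to 14.2%, each called. Klf4 rose from 4.17% to 28.1% (limma, adjusted p = 0.00298). Il6ra went from 17.6% to 20.2% and Cd68 from 47.7% to 49.4%, neither called. Cd68 gave a product in 11 of 16 no-RT wells and Cebpa in 7. Whether these differences bear on the 5 genes was not tested.

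The levels of Cd34, Kit and Hoxa9 correlated across single cells, as given further on, and their promoters are shown so that the sequence before each of these genes can be compared. They are the 250 bases before the annotated start in RefSeq on GRCm38.p6, each read in the direction of the gene, at chr1:194938571-194938820 on the plus strand for Cd34, chr5:75574737-75574986 on the plus strand for Kit, and chr6:52227371-52227620 on the minus strand for Hoxa9.
Cd34: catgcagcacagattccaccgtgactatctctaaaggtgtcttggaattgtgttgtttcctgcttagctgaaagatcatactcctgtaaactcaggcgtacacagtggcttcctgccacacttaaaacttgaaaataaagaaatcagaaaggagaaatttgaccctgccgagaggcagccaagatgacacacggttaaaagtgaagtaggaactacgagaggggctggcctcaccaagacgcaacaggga
Kit: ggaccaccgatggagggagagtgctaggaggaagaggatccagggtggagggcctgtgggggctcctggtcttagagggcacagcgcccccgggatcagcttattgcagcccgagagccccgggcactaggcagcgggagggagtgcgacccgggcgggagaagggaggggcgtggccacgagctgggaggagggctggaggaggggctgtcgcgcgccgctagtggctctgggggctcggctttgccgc
Hoxa9: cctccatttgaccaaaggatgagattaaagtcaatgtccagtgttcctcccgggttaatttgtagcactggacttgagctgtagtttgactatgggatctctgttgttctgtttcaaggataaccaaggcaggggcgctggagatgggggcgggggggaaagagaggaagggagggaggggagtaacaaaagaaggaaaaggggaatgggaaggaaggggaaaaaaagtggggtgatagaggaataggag
The Kit promoter held 70.8% G and C, against 46.4% for Cd34, 49.6% for Hoxa9 and a mean of 53.2% over 32851 promoters. Both strands were searched for CCGGAAGT and GGAAGT, 2 overlapping motifs of ETS factors, TGTGGT of RUNX factors, AGATAA of GATA factors and the E-box CAGCTG. These occur in 2.88%, 19.7%, 14.0%, 9.99% and 13.0% of the 32851 promoters, and none of the 3 windows held any of them, so no base is set in capitals. Kit has 2 annotated starts in RefSeq, of which 1 is shown.

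5 kept cells stood apart from the other 342 and are treated first, because they touch several results on the 5 genes. They were the only kept cells with neither Cd34 nor Kit. They were picked after their values were seen, by missing products of genes other than the 5, among them the receptor Notch1. None of the 5 had Hoxa9, Zfp521, Ebf1 or Ly6d, and 1 had Fli1. All 5 had CD64A_B, an assay for a myeloid Fc receptor that gave a product in 1.17% of the other cells, and all 5 had the macrophage growth factor receptor Csf1r, found in 21.1% of the others. The rest of the myeloid genes were mixed. Klf4 was in 2 of the 5 (13.7% of the others), Cebpa in 2 (35.4%) and Csf3r in 2 (48.8%). Cd68 was in 1 (52.9%) and Il6ra in 0 (17.5%). What type of cell these 5 were was not tested. P1 held 1 of them, P2 held 2 and P3 held 2. They gave 22 to 39 products, with a median of 27 against 43 in the other cells, and values that they enter are given with and without them below. They have no level of Cd34, Kit, Hoxa9 or Zfp521, so the levels of these genes rest on other cells.

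Cd34 gave a product in 94.2%, 94.3%, 96.6% and 93.1% of the cells of P0 to P3, a mean of 94.5% ± 1.45 (SD, n = 4), or 328 of 347 cells. Kit gave one in 98.8%, 96.6%, 96.6% and 97.7%, a mean of 97.4% ± 1.09. Both genes were thus close to present in every cell on each plate, and for Kit that is also what the gate asked for. Hoxa9 was found in 84.9%, 88.5%, 88.5% and 81.6% of cells, a mean of 85.9% ± 3.32. In the 342 cells other than those that stood apart, Cd34 was at 95.9%, Kit at 98.8%, Hoxa9 at 87.1%, Fli1 at 49.7% and Zfp521 at 35.4%.

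The other two genes split the cells. Fli1 gave a product in 57.0%, 47.1%, 50.6% and 42.5% of cells (mean 49.3% ± 6.09), and Zfp521 in 38.4%, 32.2%, 28.7% and 40.2% (mean 34.9% ± 5.35). The plates ranked differently for the 2 genes: P3 was lowest for Fli1 and highest for Zfp521. None of the 16 no-RT wells gave a product for any of the 5 genes, which allows a share of up to 20.6% (exact 95% binomial limit, counting error only). Only 4 values of these genes in kept cells lay between Ct 26 and 28 and 1 between 28 and 40.

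Among cells with a product, the Ct of Cd34 ranged from 14.89 to 27.55 with a median of 18.45, and its plate means averaged 18.87 ± 0.69. Kit ranged from 11.61 to 23.62 with a median of 14.37, and Hoxa9 from 12.59 to 27.00 with a median of 15.89. Fli1 ranged from 14.87 to 26.05 with a median of 17.84, and Zfp521 from 15.26 to 26.23 with a median of 17.57. Ct is not compared between assays, since each has its own efficiency; within an assay, the cells of one gate thus covered a span of more than 10 cycles.

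A typical cell carried 3 or 4 of the 5 transcripts. The mean number per cell was 3.62 ± 0.08 over plates (3.67 ± 0.05 in the 342 other cells), with 122 cells at 3, 132 at 4 and 62 at all 5. Cd34, Kit and Hoxa9 were together in 285 cells (82.1% ± 3.80 of cells; 83.3% ± 3.88 without the 5 cells that stood apart), alone in 95 of them, with Fli1 in 86, with Zfp521 in 42 and with both in 62. Only 4 cells had none of the 5 genes, and all 4 were among the 5 cells that stood apart.

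To ask whether these transcripts fall as the B-lineage genes appear, kept cells were put into 4 classes. The class with none had no product of Ebf1, Ly6d or Pax5 (62 cells), the next class had either Ebf1 or Ly6d without Pax5 (66 cells), the third had both without Pax5 (129 cells), and the Pax5 class had Pax5 with or without the others (90 cells). No class held fewer than 11 cells of any plate. Of the 90 cells with Pax5, 87 had all 3 genes. The cells gave 41.0 ± 2.00, 41.7 ± 0.61, 43.0 ± 0.61 and 43.1 ± 0.84 products in this order, and the mean level of the 3 reference genes Atp5a1, Hprt and Tfrc was 14.49, 14.39, 14.36 and 14.23 cycles. Without the 5 cells, the class with none gave 42.2 ± 0.93 products and a reference level of 14.61.

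Averaged over plates, the Ct of Cd34 rose from class to class, and most at the Pax5 class. In cells with a product, the mean Ct in the class with none was 16.97, 17.78, 17.52 and 17.52 on P0 to P3. In the class with Ebf1 or Ly6d it was 17.79, 18.99, 17.85 and 18.21. In the class with both it was 17.78, 19.60, 18.33 and 18.82, and in the Pax5 class it was 20.14, 22.19, 21.26 and 19.97. Every plate of the Pax5 class was later than every plate of each other class, so these groups did not overlap. How many of all assays separate in this way was not counted.

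As levels, the class means of Cd34 were 10.56 ± 0.34, 9.79 ± 0.55, 9.37 ± 0.77 and 7.11 ± 1.04 cycles. From the class with none to the Pax5 class the level fell by 3.45 cycles (SE 0.30, 95% interval -4.08 to -2.81; limma with the plate as a block, adjusted p = 1.44e-06), and it was lower on 4 of 4 plates. At perfect doubling in each cycle this would be a 10.9-fold lower transcript level. Of the 49 assays tested, 18.4% were called lower in this contrast, and of the 5 genes 2 were, Cd34 and Kit. Over the 49 assays the median change was -0.30 cycles with 32 assays below 0, and over the 5 genes it was -0.59 with 3 below 0.

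**Figure D1:**
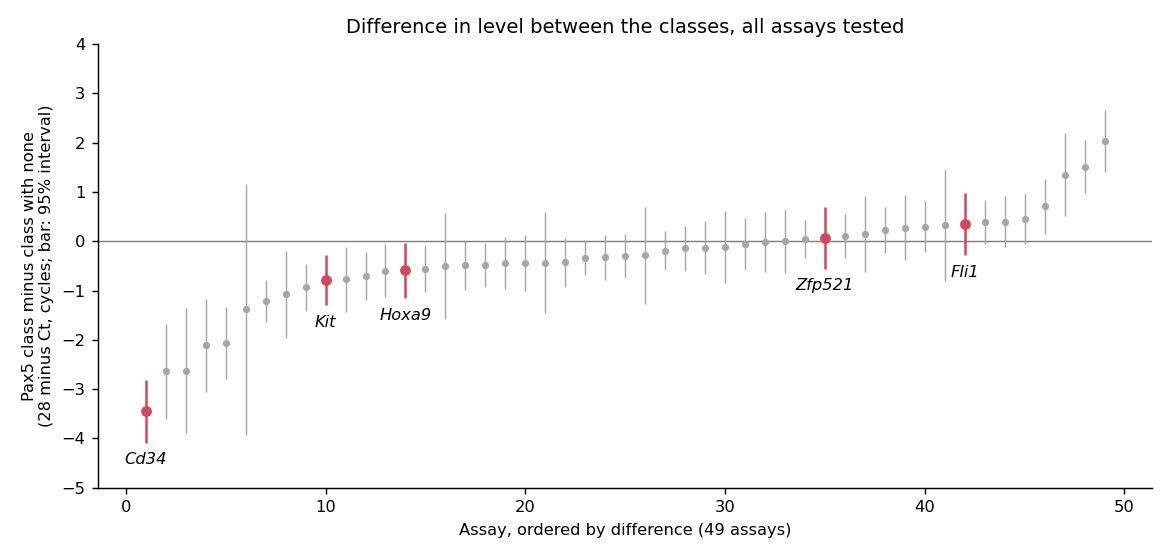
Difference in level (28 minus Ct, in cycles, over cells with a product) between the Pax5 class and the class with none of Ebf1, Ly6d and Pax5, for all 49 assays in order of size; points are limma estimates over 4 plates, bars their 95% intervals, and the 5 genes are in red. Cd34 lies lowest, at -3.45; the intervals of Fli1 and Zfp521 include 0.

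The last step, where Pax5 was added, was the larger one. Between the class with both Ebf1 and Ly6d and the Pax5 class, a contrast added after seeing the data, the level fell by 2.26 cycles (SE 0.30, limma, adjusted p = 0.000178), while 10.2% of the 49 assays were called lower. The earlier step, from none to both, was a fall by 1.18 cycles (adjusted p = 0.0385, with 6.12% of assays called lower), but this call was lost in 7 of 12 alternatives, among them each plate left out in turn (adjusted p from 0.0591 to 0.129), and its adjusted p ran from 0.0202 to 0.254 over all 12. From none to the class with Ebf1 or Ly6d the change was -0.76 cycles (limma, adjusted p = 0.197), and 0 of the 49 assays were called. The step from that class to the class with both was not tested, and on P0 the levels were 10.21 and 10.22 cycles. The linear trend was a fall by 1.08 cycles per class (SE 0.09, adjusted p = 1.68e-06), with 18.4% of assays called lower on that contrast. The mean Cd34 level was 9.80 cycles in cells with Ebf1 only (38 cells) and 9.59 in cells with Ly6d only (28 cells), a difference that was not tested.

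The spread of Cd34 between cells was also taken by class. The lowest Cd34 level in the class with none was 9.08 cycles. Below it lay 16 of 65 cells with a product in the class with Ebf1 or Ly6d, 49 of 129 in the class with both and 64 of 77 in the Pax5 class. The SD between the cells of a plate was on average 0.80 cycles in the class with none and 0.99, 1.55 and 1.83 in the following classes, a description with no test.

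**Figure D2:**
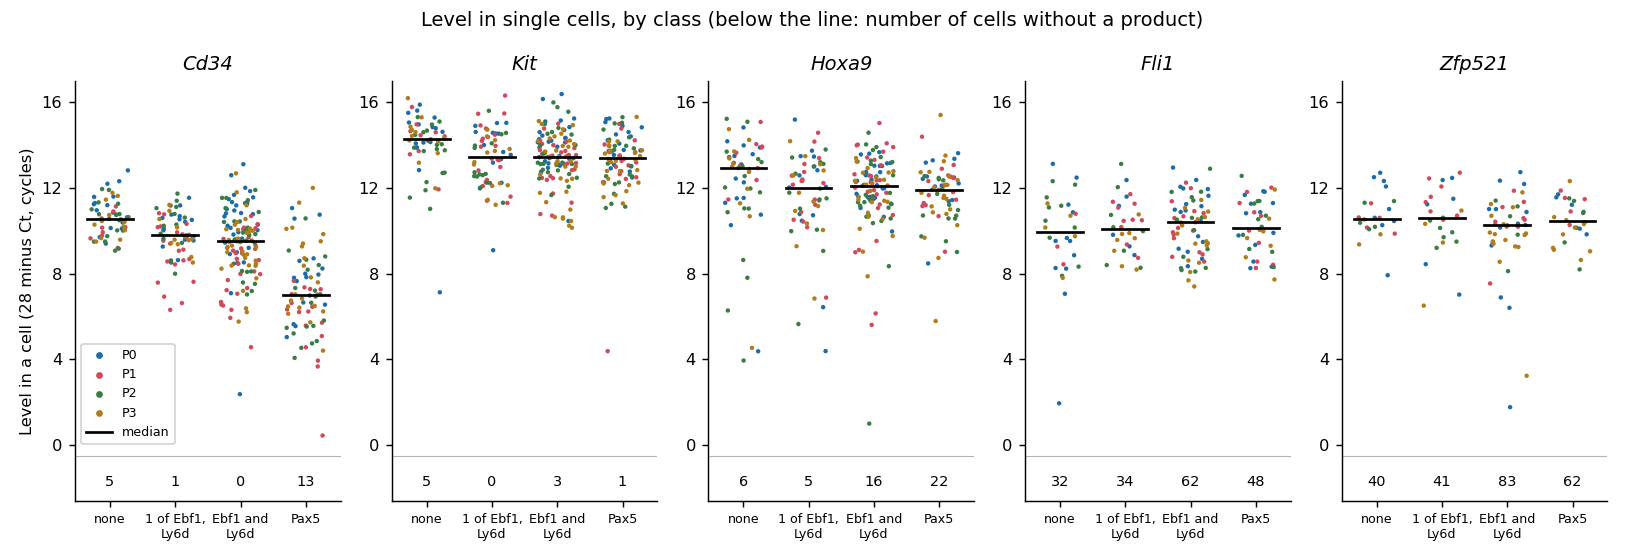
Level (28 minus Ct, cycles) of each of the 5 genes in single cells with a product, by class; points are cells in the colour of their plate, bars mark the median over cells, and the number under the line counts cells without a product. The Cd34 cells of the class with none all lie at 9.08 or above, and most cells of the Pax5 class lie below that.

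Kit fell by less. Its mean Ct was 13.83, 13.76, 14.38 and 13.69 in the class with none and 14.10, 15.02, 14.77 and 14.93 in the Pax5 class, so the plate values of the 2 classes overlapped. The level fell by 0.79 cycles (SE 0.24, limma, adjusted p = 0.0224), and it fell by 0.23 cycles per class on the trend (adjusted p = 0.0335). The change to the Pax5 class was below 0 on 4 of 4 plates. Centred on the reference genes Atp5a1, Hprt and Tfrc the change was -0.41, and the call was lost there (adjusted p = 0.244), without P1 (0.127), without P3 (0.148) and with no plate block (0.0556), against 0.000358 to 0.244 over all alternatives. The trend was lost without P1 (adjusted p = 0.188), without P3 (0.220), when centred, with no block and when weighted by cells (0.000835 to 0.301 over all alternatives).

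Hoxa9, Fli1 and Zfp521 did not pass the test among cells with a product. Hoxa9 had levels of 12.28, 11.55, 11.81 and 11.69 cycles over the classes, a change of -0.59 to the Pax5 class (SE 0.26, limma, adjusted p = 0.100). With the median of cells in place of the mean it was -1.05 (adjusted p = 0.00197; 0.00197 to 0.413 over the alternatives). Fli1 was at 9.79, 10.17, 10.16 and 10.15 cycles, and the interval of its change ran from -0.28 to 0.99. Zfp521 was at 10.55, 10.33, 9.95 and 10.62 cycles, and the interval of its change ran from -0.56 to 0.69. With -1.15 to -0.04 for Hoxa9, all 3 intervals exclude a fall of the size measured for Cd34.

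Whether a transcript was found at all gave a second measure. Cd34 was found in 91.8% ± 5.97 of cells in the class with none, 98.1% ± 3.85 with Ebf1 or Ly6d, 100% with both and 85.6% ± 7.80 in the Pax5 class. Of the 19 cells without Cd34, 13 were in the Pax5 class and 5 in the class with none, and those 5 were the cells that stood apart. Of these 19 cells, 14 still had Kit and 10 had Hoxa9.

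From the class with none to the Pax5 class, 17.1% of 82 assays were called lower in detection, and none of the 5 genes was called in either direction. The change of Cd34 was -6.19 percentage points (limma on the arcsine scale, adjusted p = 0.271) and that of Hoxa9 was -14.9 (adjusted p = 0.169). The cells that stood apart were all 5 of the cells without Cd34 in the class with none and 5 of its 6 cells without Hoxa9. Leaving them out therefore fixes Cd34 there at 57 of 57 cells, and the values that follow are a description with no test: the change is then -14.4 points for Cd34 and -22.8 for Hoxa9, where 18.3% of the 82 assays were called lower. With the 5 cells kept, Hoxa9 was called without P3, at -23.0 points (adjusted p = 0.0466; 0.0183 to 0.984 over the alternatives). Between the class with both and the Pax5 class, which these cells do not enter, Cd34 fell by 14.4 points (adjusted p = 0.0212; 7.32% of assays called lower), a call lost without P1 (adjusted p = 0.189), without P2 (0.0600) and without P3 (0.0507).

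**Figure D3:**
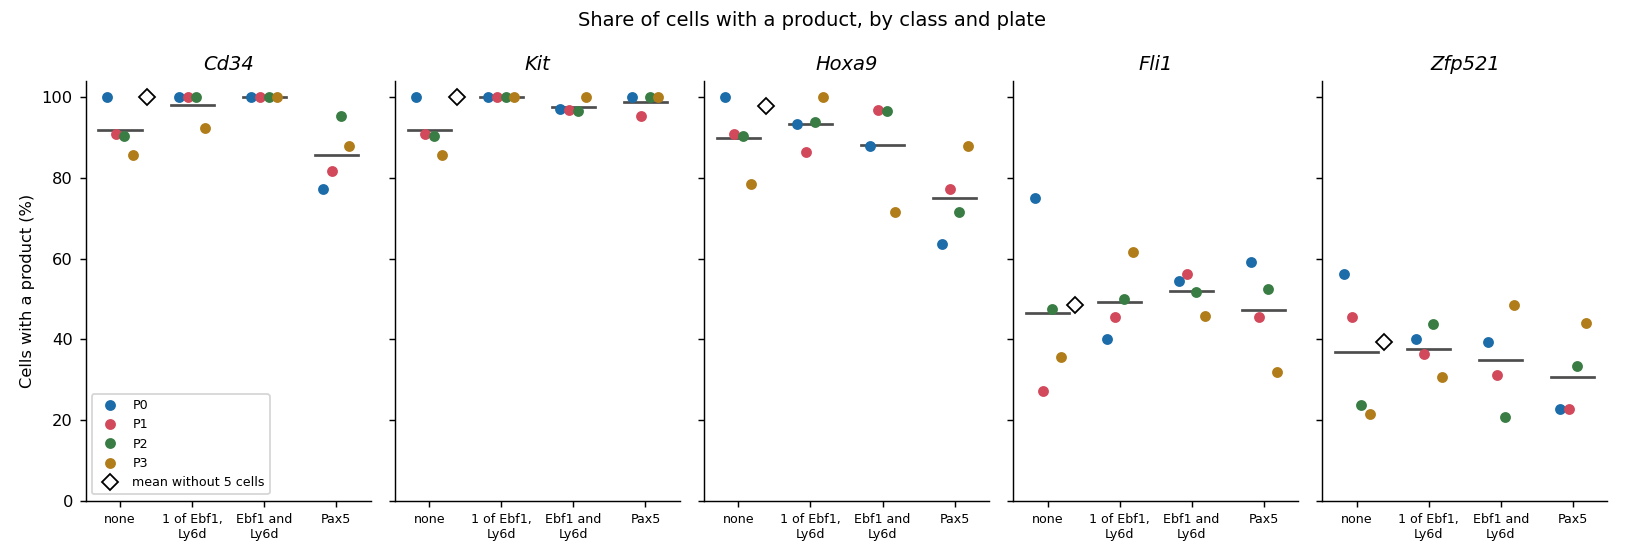
Share of kept cells with a product (percent) for each of the 5 genes in the 4 classes; points are the 4 plates, bars their mean, and the open diamond is the mean of the class with none without the 5 cells that stood apart. Cd34 reaches 100% on all plates in the class with Ebf1 and Ly6d and averages 85.6% in the Pax5 class; Fli1 and Zfp521 show plates that overlap in all classes.

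Hoxa9 was found in 90.0% ± 8.79, 93.4% ± 5.57, 88.2% ± 11.9 and 75.1% ± 10.3 of cells over the 4 classes. Kit was at 91.8%, 100%, 97.6% and 98.9%, a change of 7.09 points to the Pax5 class (limma, adjusted p = 0.0687). That change was called without P0 (9.45 points, adjusted p = 0.0224; 7.08e-05 to 0.423 over the alternatives) and was -1.14 points without the 5 cells. Fli1 was at 46.4%, 49.2%, 52.1% and 47.2%. Zfp521 was at 36.7%, 37.7%, 35.0% and 30.7%, but its plates went opposite ways: from the class with none to the Pax5 class the share went from 56.3% to 22.7% on P0 and from 45.5% to 22.7% on P1, and from 23.8% to 33.3% on P2 and from 21.4% to 44.0% on P3. The group of Cd34, Kit and Hoxa9 in 1 cell was present in 90.0% ± 8.79, 91.4% ± 3.44, 86.5% ± 10.4 and 64.1% ± 9.39 of cells over the classes, values given without a test, and in 97.9% ± 4.17 of the class with none without the 5 cells.

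Co-detection asked whether 2 transcripts shared cells more or less often than their shares give, as a log2 odds ratio within each plate. Of 1176 pairs of 49 genes found in 5% to 95% of cells, 4.59% were called in either direction; Kit was too common to enter. Among the 6 pairs of Cd34, Hoxa9, Fli1 and Zfp521, 1 was called. Cd34 and Hoxa9 were together in 288 cells where 282 were expected, and 9 cells had neither. Their log2 odds ratio was 3.25, 2.65, 3.91 and 1.37 on P0 to P3, a mean of 2.79 ± 1.08 (limma, adjusted p = 0.00946). All 4 plates were above 0, but 5 of the 9 cells with neither gene were the cells that stood apart. Without these the ratio was 1.45 (adjusted p = 0.268; 0.000111 to 0.268 over the alternatives), with 3.83% of pairs called; leaving out cells with neither gene lowers such a ratio by construction. The call was also lost without P1 (adjusted p = 0.0545).

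The other pairs of these genes were not called. Their mean log2 odds ratios were 0.91 for Fli1 and Hoxa9, 0.84 for Cd34 and Zfp521, 0.58 for Fli1 and Zfp521, 0.54 for Hoxa9 and Zfp521, and 0.44 for Cd34 and Fli1.

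**Figure D4:**
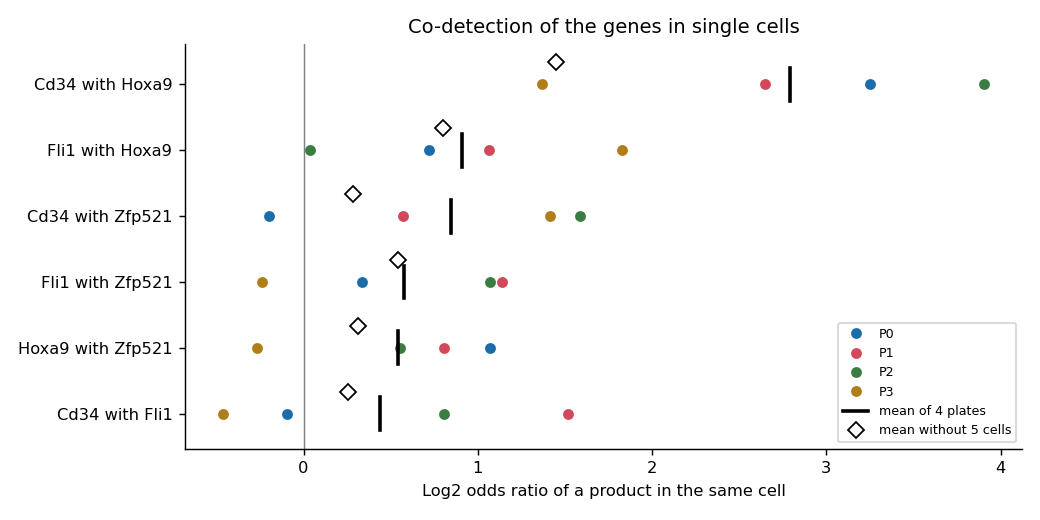
Log2 odds ratio of co-detection for the 6 pairs of Cd34, Hoxa9, Fli1 and Zfp521; points are the 4 plates, bars their mean, and open diamonds the mean without the 5 cells that stood apart. Cd34 with Hoxa9 lies above 0 on 4 of 4 plates (mean 2.79), and its diamond lies at 1.45.

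Over all partners, Cd34 was called with 9 of 48 partners (18.8%) and Hoxa9 with 4 of 48 (8.33%), against 4.59% of all pairs. Among the Cd34 calls, those with Il4ra, Il12rb1 and Ly86 were lost without the 5 cells (limma, adjusted p = 0.348, 0.197 and 0.0672). None of the 5 had Cd34, Il4ra or Il12rb1 and all had Ly86, so leaving them out moves these ratios towards 0 by construction. Cd34 with Csf3r, not called with all cells (2.16), was at 2.39 without the 5 cells. That is a description with no test, since 2 of the 5 had Csf3r and none had Cd34. Hoxa9 with Ly6d went from -1.29 to -2.57, a description with no test, since the 5 cells had neither gene. Cells without Cd34 carried Gfra2, a receptor of the GDNF family, in 16 of 19 cases, against 71 of 328 cells with Cd34. Gfra2 detection also rose by 59.5 points from the class with none to the Pax5 class, which held 13 of these 19 cells. Whether Cd34 with Gfra2 goes beyond that difference between classes was not tested. The log2 odds ratio of this pair was -2.07, -5.82, -4.65 and -3.46 on P0 to P3 (adjusted p = 0.00358), and it was called in all 10 alternatives, also without the 5 cells (-3.46, adjusted p = 0.00532; 2.89e-05 to 0.0459 over the alternatives). Cd34 with Pax5, which reads the same cells as the Pax5 class, was at -2.76 ± 2.02 (adjusted p = 0.0380; 0.116 without P0, 0.174 without P1 and 0.103 without P3), and with Cd38, a surface enzyme, at -2.32 ± 0.59 (adjusted p = 0.0123). Without the 5 cells, which had neither Cd34 nor Pax5, the Pax5 value was -4.04, a description with no test. The Cd38 call was lost there (limma, adjusted p = 0.0567, with 0.000255 to 0.101 over the alternatives). Of the 5 cells 4 had Cd38 and none had Cd34, so this loss depends on which cells were left out. The Cd38 call was also lost without P1 (0.0545) and without P3 (0.101).

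On the positive side, Cd34 shared cells with Cd72, a co-receptor of B cells (2.77 ± 1.49, limma, adjusted p = 0.0188), and with the repressor Gfi1 (2.35 ± 1.69, adjusted p = 0.0477). Hoxa9 shared cells with Cd72 (1.96 ± 0.93, adjusted p = 0.0380) and was found less often with Ly86, the partner of the Toll-like receptor homologue Cd180 (-2.28 ± 0.73, adjusted p = 0.0160), and with Cd38 (-1.82 ± 0.22, adjusted p = 0.0297). The 5 cells that stood apart lacked Cd34, Hoxa9, Cd72 and Gfi1 and enter all of these counts. All 5 had Ly86 and 4 had Cd38, so leaving them out takes away cells with these genes and without Hoxa9. Without them Hoxa9 with Ly86 was still called (-2.08, adjusted p = 0.0315; 0.00235 to 0.101 over the alternatives), and the other 4 of these pairs were not (adjusted p = 0.268 for Cd34 with Cd72, 0.208 for Cd34 with Gfi1, 0.230 for Hoxa9 with Cd72 and 0.0707 for Hoxa9 with Cd38); for Cd72 and Gfi1 this removes cells with neither gene, which lowers the ratio by construction. Each of these 5 pairs also lost its call without P1 and without P3, 4 of them without P0 and 3 without P2, at adjusted p from 0.0537 to 0.147. Fli1 and Zfp521 were called with 0 of 48 partners each by limma, with 1 each at an unadjusted p under 0.05; their extremes were Itgb7 (0.96) and Il6ra (-0.76) for Fli1, and Bst2 (1.19) and Cd5 (-1.13) for Zfp521.

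Level against level, Cd34 tracked Kit and Hoxa9. Over cells with both products, the mean Spearman correlation over plates was 0.35 for Cd34 and Kit (324 cells), 0.35 for Cd34 and Hoxa9 (288 cells) and 0.31 for Kit and Hoxa9 (295 cells). The points share cell input and pre-amplification, so these are descriptions with no test. Cd34 against Ebf1 gave -0.40 (242 cells) and against Ly6d -0.23 (231 cells). Within Pax5-positive cells, Cd34 against the level of Pax5 itself gave -0.01 (77 cells). Zfp521 against Ebf1 was 0.40 (86 cells), where Zfp521 was found.

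With cells without a product set to level 0, the assays most like Cd34 over 347 cells, among 72 others, were the transcription factor Mef2c (0.50), the selectin ligand Selplg (0.49) and the reference gene Atp5a1 (0.47), and the least like were Pax5 (-0.56), Gfra2 (-0.49) and Ebf1 (-0.48). Kit was most like CD45RA (0.45) and H2-K1 (0.45) and least like Ly86 (-0.13), Ly6d (-0.13) and Cd38 (-0.11). Hoxa9 was most like Atp5a1 (0.44), H2-K1 (0.44) and Mef2c (0.43) and least like Gfra2 (-0.18), Pax5 (-0.16) and Ly6d (-0.16). Housekeeping or broadly expressed genes thus stood among the nearest of all 3. For Cd34, Hoxa9 was at place 9 of 72 (0.41) and Kit at place 11 (0.39), behind Atp5a1 and Hprt (0.45). For Kit, Cd34 was at place 6 (0.39) and Hoxa9 at place 17 (0.29). For Hoxa9, Cd34 was at place 4 (0.41). Fli1 was nearest to Cxcr4 (0.25), Atp5a1 (0.25) and Ikzf1 (0.23) and farthest from INFA_BR1 (-0.07), Il6ra (-0.06) and Cd4 (-0.06). Zfp521 was nearest to Hprt (0.23), Csf3r (0.14) and Atp5a1 (0.13) and farthest from Cd9 (-0.12), Ly86 (-0.11) and Ebf1 (-0.11). Without the 5 cells, 26 of the 30 assays at these places kept them, and none of the 30 correlations moved by more than 0.046.

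A list of 39 other stem and multipotent genes had 11 that were measured. From the class with none to the Pax5 class, 0 of these were called lower in detection (limma), against 14 of all 82 assays. Of the 11, 3 were called higher, against 15 of all 82 assays. Among the 3 were Notch1 (adjusted p = 0.0239) and the chemokine receptor Cxcr4 (adjusted p = 0.0273), and Cxcr4 gave a product in 13 of 16 no-RT wells. None of the 3 calls held without the 5 cells, which were picked in part by lacking Notch1; there the adjusted p was 1 for Notch1 and 0.613 for Cxcr4. In level, 1 of the 11 was called higher and 1 lower, against 3 higher and 9 lower of all 49 assays tested. The lower one was Mef2c, which fell by 0.93 cycles (adjusted p = 0.00562).

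The pooled wells gave the 5 genes at more than 1 cell. Cd34 had a Ct of 24.42, 15.20, 14.10 and 14.29 in the 10-cell wells of P0 to P3 and 14.39, 15.42, 14.13 and 13.82 in the 20-cell wells. Kit was at 40, 11.59, 10.01 and 11.51 with 10 cells and 9.78, 9.61, 9.92 and 10.29 with 20 cells. The 10-cell well of P0 stood apart for both genes and gave only 29 products, against 68 to 71 in the other 10-cell wells. Hoxa9 was at 27.64, 14.03, 11.73 and 11.90 with 10 cells and 11.74, 11.18, 11.93 and 11.69 with 20 cells.

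Fli1 was at 40, 18.09, 13.34 and 15.71 with 10 cells and 14.94, 13.41, 14.28 and 14.40 with 20 cells. Zfp521 was at 40, 17.45, 17.79 and 17.65 with 10 cells and 14.31, 14.24, 14.65 and 15.59 with 20 cells. Among the 5, Zfp521 was the gene whose 10-cell wells with a product, P1 to P3, all came later than every 20-cell well. How many of all assays separate in this way was not counted. A 20-cell well holds more cells, and how far this accounts for a later Ct with 10 cells was not tested. On P1 to P3, the level rose from the 10-cell to the 20-cell well by 3.21, 3.14 and 2.06 cycles for Zfp521. The change was -0.22, -0.03 and 0.47 for Cd34 and 1.98, 0.09 and 1.22 for Kit. For Hoxa9 it was 2.85, -0.20 and 0.21, and for Fli1 it was 4.68, -0.95 and 1.31. Kit, Fli1 and Zfp521 had no product in the 10-cell well of P0, which left their fit with 7 wells.

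Between 20-cell and 10-cell wells, 0 of 59 assays were called (0%; limma; 4 at an unadjusted p under 0.05), and none of the 5 genes was. Zfp521 was 2.93 cycles higher in the 20-cell wells (SE 0.68, adjusted p = 0.244). The fit compares with no difference and makes no allowance for the larger number of cells. Without the 10-cell well of P0, its adjusted p was 0.0249 (0.0249 to 0.505 over the alternatives). Zfp521 had no product in that well, so its own values and its estimate of 2.93 were unchanged. Only the spread shared with other assays and the adjustment over assays differed. Of 61 assays, 0 (0%; limma; 2 at an unadjusted p under 0.05) differed between the 10-cell wells and 10 times the mean of the plate's single cells. Zfp521 was at -2.22 cycles against that sum (SE 0.58, adjusted p = 0.477) and Kit at -0.28 (adjusted p = 0.784). In pooled wells, fewer cells with a transcript and less of it per cell cannot be told apart.

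**Figure D5:**
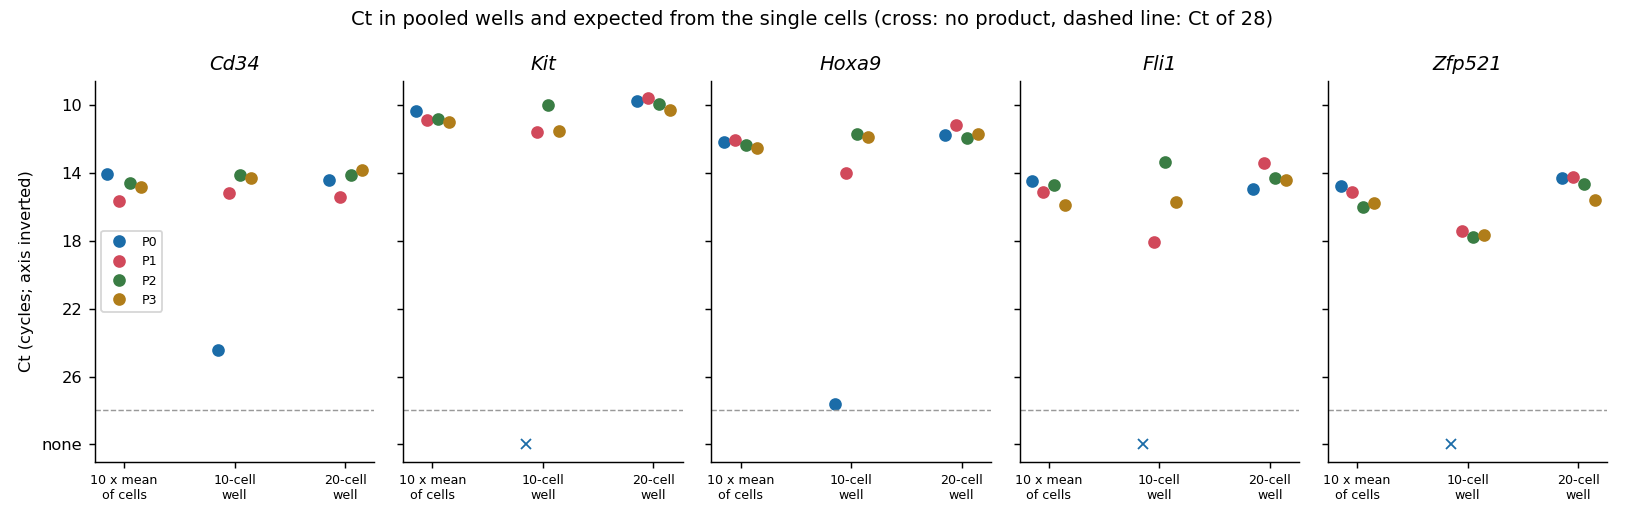
Ct of the 5 genes in the 10-cell and 20-cell wells of P0 to P3, beside the Ct that 10 times the mean of the plate's single cells would give; the vertical axis is Ct in cycles, inverted, and crosses mark wells without a product. The 10-cell well of P0 lies apart for Cd34 (24.42) and Hoxa9 (27.64), and Zfp521 lies later in the other 10-cell wells (17.45 to 17.79) than in the 20-cell wells (14.24 to 15.59).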

How the data were processed

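Per the labels' protocols, sorted cells were lysed and frozen, and 1 reaction in each well did reverse transcription and pre-amplification before a BioMark HD instrument read the products. The values deposited by the authors are Ct values, not normalized; the software that called them is not given in the sources used here. All 384 deposited columns were matched to a sample, with 0 columns left unmapped. Cells were kept with a product for more than 50% of Atp5a1, Hprt and Tfrc and with at least 50% of the plate's median number of products, which left out 13 wells, 10 of them with no product at all. The number of kept cells per plate, given in the report, is the depth behind each share.

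Shares (as the arcsine of the square root, for assays found in at least 1% of cells) and mean levels (over at least 3 cells with a product) were taken per class and plate and fitted with limma 3.58.1 in R 4.3.3, with the plate as a block, over all assays other than the class genes. Co-detection was fitted over plates, for assays found in fewer than 4 no-RT wells, with 0.5 added to each count of the log2 odds ratio. Pooled wells were fitted without the block. P-values were adjusted by Benjamini-Hochberg over all assays or pairs, with a threshold of 0.05, and the fits were tested on simulated data. Same-plate wells are paired by the labels. Deviations from the class means correlated at 0.16, 0.44, 0.08 and 0.51 between the class with none and the Pax5 class of a plate, over 44 assays, and at -0.15, -0.49, -0.66 and 0.01 between the pooled wells, over 28 assays.

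The 5 genes and all lists were chosen with earlier results of these data known. Partners were named by rule as up to 3 called in each direction with the same sign on all plates, by size, or otherwise the highest and lowest. The nearest and farthest assays are the 3 with the highest and lowest mean correlation among assays found in at least 5% of cells. Of the marker lists, the B list (8 measured) holds the class genes; the mean number of products from the class with none to the Pax5 class went from 0.953 to 4.58 for it, from 0.520 to 0.167 for T (5), from 0.358 to 0.364 for NK and innate (4), from 1.82 to 1.10 for dendritic (3) and from 0.576 to 0.467 for erythroid and megakaryocyte genes (3). Assay names were matched to RefSeq symbols directly (47) or by synonym (34), and 15 keep their deposited name. Alternatives were other thresholds, filters, weights, medians, pseudocounts, centring, blocks and plates left out; leaving out the 5 cells and the contrast of both against Pax5 were chosen after seeing the data. Fli1 and Zfp521 promoters were not used here. Some values that the naming rules and lists would give are not reported here.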

Additional observations from a re-analysis of the deposited data

Results flagged for a closer look

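Of 72 groups of 4 values, 10 had a plate far from the others. The rule used flags about 1 in 20 groups of independent, normally spread values. Shares near 100% turn on single cells and some groups share a well, so the count is not set against that rate. The Ct of Cd34 in the 10-cell well of P0 was 24.42 against 14.10 to 15.20 on the other plates, and that of Hoxa9 was 27.64 against 11.73 to 14.03, both in the well that gave 29 products. The mean Ct of Fli1 on 1 plate was 18.38 against 17.70 to 17.78.

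In shares by class, Cd34 in the class with Ebf1 or Ly6d was at 92.3% on P3 (12 of 13 cells) against 100% on the others. Kit in the Pax5 class was at 95.5% on P1 (21 of 22 cells) against 100%. Kit in the class with both was at 100% on 1 plate (35 of 35 cells) against 96.6% to 97.0% (28 of 29 to 32 of 33 cells). In co-detection, 1 plate each stood apart for Cd34 with Cd38 (log2 odds ratio -3.19 against -2.13 to -1.94), for Hoxa9 with Cd38 (-2.15 against -1.75 to -1.69), for Cd34 with Il12rb1 (0.89 against 2.03 to 2.23) and for Cd34 with Gfi1 (4.86 against 1.32 to 1.80).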

How the results depend on the processing

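Of 414 alternative values for single genes and pairs, 320 kept their direction and side of the threshold, 68 lost the call, 10 gained one and 16 changed sign. The Cd34 level change to the Pax5 class kept both in all 12 alternatives, from -3.78 to -3.12 cycles. The number of calls in detection was 29, and 44 with no quality control of cells and 16 to 25 with a plate left out. In level it was 12, and 19 with medians. In co-detection it was 54, and 108 with a pseudocount of 1, 211 with assays in 2% to 98% of cells, 348 with no quality control, 109 when split by the number of products, and 11 to 43 with a plate left out. Between pooled wells it was 0, and 0 to 1 with a plate left out and 1 without the 10-cell well of P0. The causes were not tested.

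With no replicate block, level had 10 calls and detection 27; the Cd34 call to the Pax5 class was kept, and the calls of Kit and of Cd34 from none to both were lost. With the replicate block, pooled wells had 0 calls and Zfp521 was at 2.80 cycles (adjusted p = 0.416).

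The sign changed only in values that were not called. With no quality control, detection changed by 9.23 points for Cd34, 0.207 for Hoxa9 and 0.306 for Zfp521. Without the 5 cells it changed by -1.14 for Kit and -1.28 for Fli1. With a plate left out it ranged from -4.95 to 6.41 for Fli1, with -0.481 without P2, and from -15.6 to 3.12 for Zfp521. The Zfp521 level change was -0.056 when weighted and ranged from -0.14 to 0.20 with a plate left out. Between 20 and 10 cells, Cd34 was at -2.06 when centred on the reference genes, and Fli1 ranged from -0.017 to 2.65 with a plate left out. Between 10 cells and single cells, Cd34 was at 1.59 when centred and 0.26 without the 10-cell well of P0, and with a plate left out it ranged from -3.14 to 0.50 and Fli1 from -1.74 to 0.49.

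Each share by class rests on 4 plates with 11 to 35 cells per class and plate; the smallest change that could be detected at this depth was not computed.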
